A study of Mus musculus with 12 samples.

Results

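The clustered replication-dependent histone genes are the core and linker histone genes that lie in a few tight clusters of the mouse genome. They were taken from the GENCODE vM39 annotation of GRCm39 as the protein-coding genes whose symbol is H1f1 to H1f5 or starts with H2ac, H2bc, H3c or H4c followed by a number, a rule that uses no measured value. The annotation held 67 such genes, and 66 of them were among the 40551 genes with deposited counts, with the remaining gene, H2bc26, not analysed here. The 66 members comprised 5 H1, 18 H2A, 18 H2B, 12 H3 and 13 H4 genes. Chromosome 13 held 53 of them in 2 blocks, chromosome 3 held 10, chromosome 11 held 2 and chromosome 6 held H4c16 alone.

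The counts came from total RNA-seq of 12 mouse livers with 3 libraries for each of 4 genotypes. WT livers were compared with Mcl1Δhep livers (Mcl1 KO in the labels), which lose the apoptosis inhibitor Mcl1 in hepatocytes through Cre recombinase driven by the albumin promoter, with Sting1-/- livers (Sting1 KO), which lack the adaptor of cytosolic DNA sensing in every cell, and with Mcl1Δhep Sting1-/- livers (Mcl1 Sting1 DKO), which carry both. The study used the cross to ask how the Mcl1Δhep liver changes when this pathway is blocked. Whole livers were sequenced and nonparenchymal cells keep Mcl1, so that fewer cells of a kind and less RNA per cell cannot be told apart. The labels give no age, and the study's text gives 2 months for the transcriptomes of WT and Mcl1Δhep livers.

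Histones package DNA, and a dividing cell makes a new set of them during S phase. The clustered genes supply this set: H2A, H2B, H3 and H4 form the nucleosome core and H1 binds the linker DNA. Their mRNAs are unusual among those of animals, since they have no introns in most cases and end in a conserved stem-loop in place of a poly(A) tail. SLBP (stem-loop binding protein) and the U7 snRNP direct the cut that makes this end, and the transcripts are degraded when DNA synthesis stops. In the adult liver few hepatocytes are in S phase at any time.

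The stem-loop is the feature the members share that the rule did not use, and its forms are shown here because they separate H4 from the other types. A perfect hairpin of 16 bases was looked for in the 150 bases after the stop codon on the coding strand. The hairpin had to have 6 paired bases that begin with GG, a T among the bases of this arm after GG, and a loop of 4 bases. It was found in 61 of the 66 members, beginning 22 to 59 bases after the stop codon, and in 55 of the 58 members that passed the filter on low counts (94.8%). Among the other 13576 tested protein-coding genes 38 held it (0.28%), among them H2ax, whose product is the H2A variant that is phosphorylated at DNA breaks. In the sequences below the paired bases are in capitals and the loop is in lower case, each read 5′ to 3′ from GRCm39.
H3c2, chr13:23936803-23936818, plus strand: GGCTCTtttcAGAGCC
H2bc13, chr13:21899888-21899903, minus strand: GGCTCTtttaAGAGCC
H4c12, chr13:21934320-21934335, minus strand: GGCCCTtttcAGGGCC
H4c14, chr3:96170255-96170270, minus strand: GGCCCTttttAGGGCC
The form printed for H3c2 was held by 38 members and included all 5 H1 genes, 15 H2A, 10 H2B and 8 H3 genes, but no H4 gene. The form printed for H2bc13 was held by 8 members, of which 4 encode H2B. All 13 H4 genes carried a stem with another pair in its middle. The form printed for H4c12 was held by 8 of them and that printed for H4c14 by 2. No hairpin of this form was found in the window of H2bc21, H2bc22, H2bc23, H2bc24 and H2ac22.

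The members are near copies of each other, which bears on every count given here. The 13 H4 genes encode 1 protein, the 12 H3 genes encode 2, the 18 H2A genes 9, the 18 H2B genes 12 and the 5 H1 genes 5. Of all 64-base stretches of a member's exons, a median of 56.9% over the members stood at 1 place in the genome. The share reached at least 90% in 12 members and was 0% in 5. How reads with several matches were counted is not given in the sources used here, so that counts of single paralogs are uncertain, whereas the sum over a type is less so. The exons of 32 members overlapped an exon of another annotated gene, and without knowledge of strand reads of overlapping genes cannot be told apart.

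In the RefSeq table of upstream windows (GRCm38.p6, 250 bases before to 50 after each start), 57 members were found by symbol. A gene was counted for a motif if any of its windows held it on either strand. The letters CCAAT were in 86.0% of these members and in 41.1% of all genes with windows. TATAAA was in 59.6% against 15.7%, and the shorter TATAA, which it contains, in 78.9% against 28.0%. Within 1000 bases, 11 pairs of an H2A and an H2B gene stood head to head with 175 to 305 bases between their starts.

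The libraries held 28826367 to 45266387 counts. Mcl1 itself was at 98.5 ± 7.35 CPM (the counts of a gene relative to the library size scaled with TMM factors) in WT, 81.6 ± 7.19 in Sting1-/-, 28.9 ± 4.57 in Mcl1Δhep and 22.3 ± 3.95 in Mcl1Δhep Sting1-/- livers (mean ± SD, n = 3 each). This fits the Mcl1 part of the labels, and the level of Sting1 is not given here. The share of counts on 2636 small structured RNA genes (snRNA, snoRNA and the like) was 0.192 to 0.422% in WT, 0.599 to 0.982% in Sting1-/- and 0.492 to 0.623% in Mcl1Δhep Sting1-/- livers. In the Mcl1Δhep livers it was 0.315, 2.78 and 1.55% for replicates 1, 2 and 3. WT replicates 2 and 3 and Mcl1Δhep Sting1-/- replicate 1 expressed Y-linked genes, at a sum of 141 to 157 CPM against at most 0.189 in the others, so that sex is partly confounded with genotype. Mcl1Δhep replicate 3 held 1202 CPM of 6 skeletal muscle markers, against at most 6.54 in any other library. All 8 hepatocyte markers were present, with a sum of 91680 to 153700 CPM over all libraries, and 2 of them were called lower in Mcl1Δhep than in WT livers. Of the other cell type markers, 4 of 7 for macrophages, 3 of 6 tested for T and NK cells and 3 of 6 for stellate cells were called higher, with sums of 662 to 796, 5.54 to 9.41 and 564 to 602 CPM in Mcl1Δhep livers against 398 to 629, 3.95 to 6.20 and 348 to 506 CPM in WT livers. Neutrophil markers summed to 6.69 to 19.1 CPM in Mcl1Δhep livers and to 1.22 to 4.94 elsewhere, and of the 6 markers the 3 that were tested were higher than in WT. Between Mcl1Δhep and WT livers 0 markers of B cells, endothelial cells and cholangiocytes were called, and 1 of 7 tested erythroid markers was called lower. Over all tested genes 10.8% were called higher and 9.43% lower. No marker of these lists was at 0 in every library.

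In WT livers the members were a small part of the RNA, 0.0359 to 0.0408% of counts. Per length, in TPM computed with the summed exon lengths, H4 was the most abundant type with 790 ± 33.3 TPM, followed by H1 with 236 ± 43.8, H2B with 201 ± 21.9, H3 with 120 ± 11.2 and H2A with 87.2 ± 4.29. The order of H1 and H2B rests on means that differ by less than their spread. A few genes carried most of it. The 10 members with the highest mean TPM over all libraries made up 74.7% of the members' TPM in WT livers. H4c8 alone had 323 ± 18.9 TPM, ahead of H4c4 with 159 ± 18.5 and H4c3 with 146 ± 6.88, which differ by less than their spread. The linker histone genes H1f4 and H1f2 had 107 ± 15.2 and 100.9 ± 30.6 TPM, and the H2B gene H2bc4 had 75.1 ± 12.2. TPM depends on the annotated length, which runs well past the stem-loop in some members, and is the coding part alone in 11. The testis-type genes H2ac1 and H2bc1 had 0 counts in all 12 libraries. Of the 8 members that did not pass the filter, the other 6 (H2ac18, H2ac19, H2ac23, H2ac24, H2bc23 and H2bc24) had at most 3.8% of their 64-base stretches at 1 place in the genome, and at most 2 counts in any library.

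**Figure D1:**
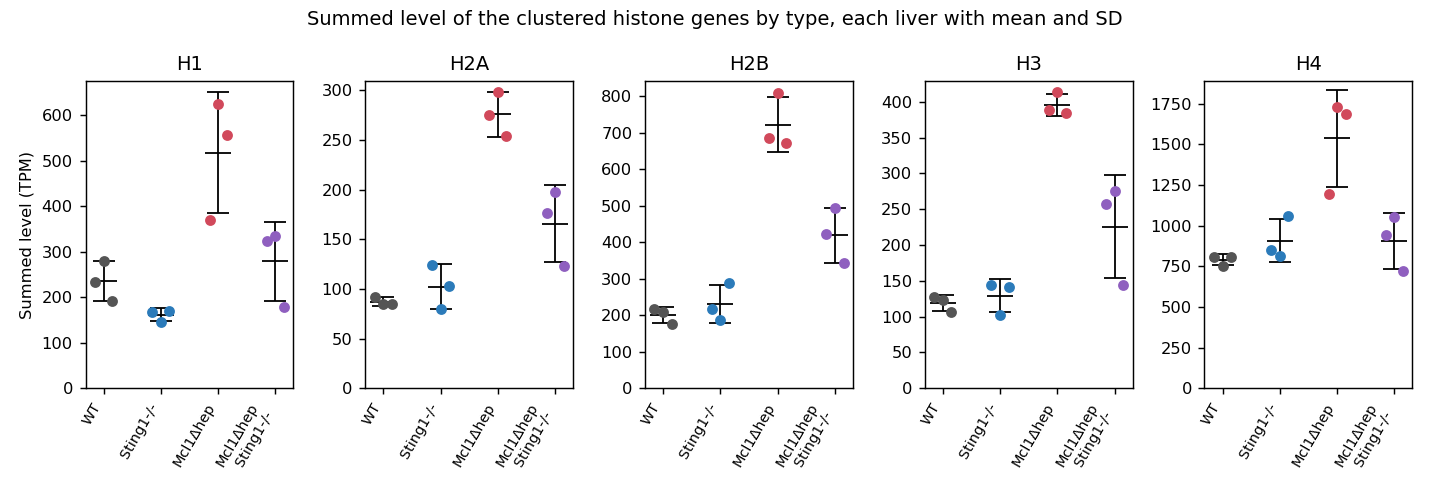
Summed TPM of the members by histone type (H1, H2A, H2B, H3, H4) in each of the 12 livers, with points for single livers and bars for the mean and SD (n = 3 per genotype). In every panel the 3 Mcl1Δhep livers sit above the 3 WT and the 3 Sting1-/- livers, and the mean of the Mcl1Δhep Sting1-/- livers sits below them, for H3 at 226 against 396 TPM.

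The comparison of Mcl1Δhep with WT livers asks what the loss of Mcl1 in hepatocytes does to these genes. Of the 58 tested members 46 were higher in Mcl1Δhep livers at an adjusted p under 0.05 by edgeR's quasi-likelihood test, and 0 were lower. Over all 15070 tested genes 10.8% were called higher and 9.43% lower. The median log2 fold change of the members was 1.87, against 0.00 (-0.0049) over all genes. In 48 members the 3 Mcl1Δhep livers all lay above the 3 WT livers, which held for 16.2% of all tested genes. The summed level of all 66 members was 382, 434 and 381 CPM in the WT livers and 574, 1071 and 948 CPM in the Mcl1Δhep livers, a ratio of means of 2.17 in CPM and 2.41 in TPM. DESeq2 called 47 members higher, against 13.6% of all genes.

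Calls were made in every type, for 4 of 5 H1 genes, 11 of 13 H2A genes, 11 of 15 H2B genes, 10 of 12 H3 genes and 10 of 13 H4 genes. The median log2 fold change was 2.44 for H1, 1.78 for H2A, 2.30 for H2B, 1.94 for H3 and 1.27 for H4. In TPM the sum rose from 200.5 to 723 for H2B and from 120 to 396 for H3, with ratios of 3.61 and 3.31, and from 790 to 1537 for H4, with a ratio of 1.95.

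The largest change was that of H3c2, which encodes a canonical H3. It had 0.711, 0.888 and 0.593 CPM in the WT livers and 5.76, 9.44 and 7.58 CPM in the Mcl1Δhep livers. The lowest Mcl1Δhep liver was thus far above the highest WT liver, with a log2 fold change of 3.28 (SE 0.43, adjusted p = 0.00133). H2bc13, an H2B gene whose coding sequence is shared in large part with its paralogs, had 0.342, 0.533 and 0.297 CPM in WT and 3.57, 4.67 and 4.01 CPM in Mcl1Δhep livers, with a log2 fold change of 3.21 (SE 0.43, adjusted p = 0.00133). Both genes were under 1 CPM in every WT liver.

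Among the H1 genes, which have 92.7% or more of their 64-base stretches at 1 place in the genome, H1f1 and H1f5 changed most. H1f1 had 2.24, 2.28 and 2.64 CPM in WT and 10.9, 30.0 and 23.8 CPM in Mcl1Δhep livers, with a log2 fold change of 3.15 (SE 0.42, adjusted p = 0.00133), and H1f3 rose by 2.44 (SE 0.41, adjusted p = 0.00365). H1f2, the most abundant H1 gene over all libraries per length, had 36.5, 60.4 and 34.9 CPM in WT and 53.6, 108 and 95.3 CPM in Mcl1Δhep livers. Its ranges overlapped, with WT replicate 2 above Mcl1Δhep replicate 1, and its log2 fold change was 0.96 (SE 0.29, adjusted p = 0.0392), a call kept in 4 of the 12 fits that left out 1 library. H1f4 had 59.3, 63.0 and 49.4 CPM in WT and 44.4, 104 and 102 CPM in Mcl1Δhep livers and did not pass the test (log2 fold change 0.54, SE 0.29, adjusted p = 0.192).

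H2bc18 was among the 10 most abundant members per length. It had 6.37, 4.80 and 4.15 CPM in WT and 21.1, 46.3 and 28.2 CPM in Mcl1Δhep livers, with a log2 fold change of 2.62 (SE 0.34, adjusted p = 0.00133). All of its 64-base stretches are unique, but its exons overlap exons of Gm42743 and Gm20628. H2bc15 rose by 2.495 (SE 0.24, adjusted p = 0.000605) and H2ac15 by 2.21 (SE 0.25, adjusted p = 0.000965), both without overlap between the groups. H4c8, the most abundant member in WT livers, had 39.2, 41.2 and 46.3 CPM in WT and 37.5, 72.7 and 82.9 CPM in Mcl1Δhep livers, where replicate 1 lay below every WT liver, and its log2 fold change of 0.61 (SE 0.24) had an adjusted p of 0.0881. H4c4 likewise did not pass (0.47, SE 0.16, adjusted p = 0.0539), and H4c3 did (1.04, SE 0.29, adjusted p = 0.0269), a call kept in 7 of the 12 fits that left out 1 library. H2bc4, with 53.8, 78.3 and 61.9 CPM in WT and 52.9, 64.2 and 69.2 CPM in Mcl1Δhep livers, was at -0.06 (SE 0.17, adjusted p = 0.827), and its ranges overlapped throughout. The 10 members with the highest mean TPM had a median log2 fold change of 1.002 with 6 called, and the 48 others 1.94 with 40 called. Their share of the members' TPM was 58.8% in Mcl1Δhep livers. Over all 58 members the Spearman correlation of mean TPM with the change was 0.11, given as a description, since the genes share the 12 libraries.

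By location, the first block of chromosome 13 (chr13:21899933-22227846) had 17 of 19 tested members called with a median of 2.21, and the second block (chr13:23715220-24118834) 24 of 28 with a median of 2.07. Outside chromosome 13 it was 5 of 11 with a median of 0.94. In the block of chromosome 3 (chr3:96127181-96177448) H2bc18, H4c14, H3c13 and H2ac20 rose, by 2.62, 1.56, 1.19 and 0.94, and the call of H2ac20 was kept in 7 of the 12 fits that left out 1 library. H2ac21 was at 1.20 (adjusted p = 0.0888), and H2bc21, H3c15 and H3c14 were at -0.42, -0.63 and -0.79 with adjusted p of 0.523, 0.191 and 0.117. H3c14 had 1.90, 1.90 and 1.02 CPM in WT against 0.806, 0.886 and 1.04 CPM in Mcl1Δhep livers, which overlap in 1 liver each. On chromosome 11, H2ac25 was at 0.57 (adjusted p = 0.0914) and H2bc27 at -0.41 (adjusted p = 0.565). H4c16 on chromosome 6 rose by 1.495 (SE 0.37, adjusted p = 0.0175), although Mcl1Δhep replicate 1, with 4.77 CPM, lay within the WT range of 3.27 to 5.41. Whether the location itself differs was not tested.

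**Figure D2:**
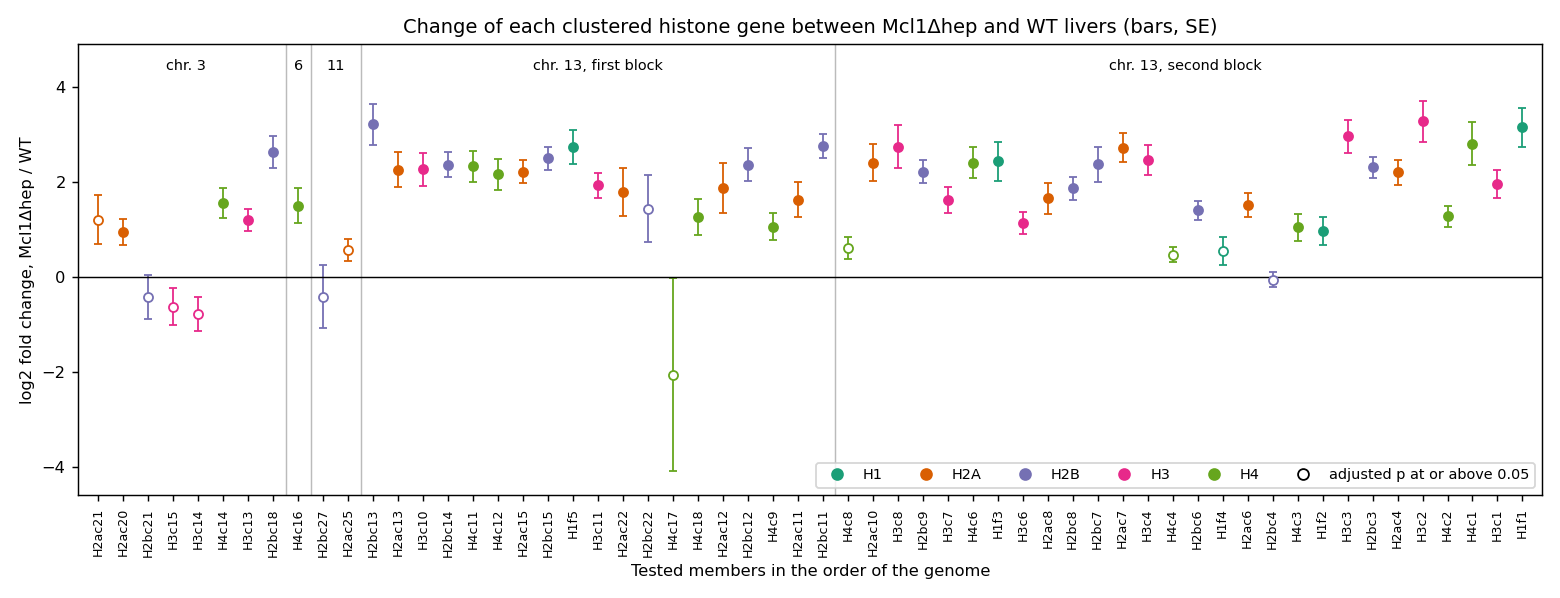
log2 fold change between Mcl1Δhep and WT livers of the 58 tested members in the order of the genome, with SE bars, coloured by histone type, with filled points for an adjusted p under 0.05. The 41 filled points of the 2 chromosome 13 blocks lie between 0.96 and 3.28, while 6 members, among them H2bc21, H3c15 and H3c14 on chromosome 3, lie below 0.

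Head-to-head pairs share an upstream region, and in 8 of the 11 pairs both genes were tested. The 2 genes of such a pair differed in log2 fold change by 0.21 (H2ac8 and H2bc8) to 1.36 (H2ac20 at 0.94 and H2bc21 at -0.42). H2ac15 and H2bc15 were at 2.21 and 2.495.

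H4c17 was listed with 0, 0 and 24 counts in the WT livers, 0, 0 and 2 in the Mcl1Δhep livers, 11 to 31 in the Sting1-/- livers and 0 to 28 in the Mcl1Δhep Sting1-/- livers. The WT and the Mcl1Δhep Sting1-/- groups were thus split, while all Sting1-/- livers had counts and the Mcl1Δhep livers had hardly any. Only 10.6% of the 64-base stretches of H4c17 are unique. Its fitted fold changes rest on these few counts and are not given here.

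Sets of members that differ in sequence and annotation were also compared. Of the 11 tested members with at least 90% unique 64-base stretches 7 were called higher, with a median of 1.40. Of the 31 whose exons overlap no other gene 26 were called, with a median of 2.16. All 9 tested members whose annotated exons hold the coding part alone were called, with a median of 2.25. Of the 32 with an untranslated part and exons of up to 1000 bases 27 were called, with a median of 1.91. Of the 17 with exons of over 1000 bases 10 were called, with a median of 1.40. The last group includes H2bc4, H1f4, H3c14, H3c15, H2bc21 and H2ac25, none of which passed the test.

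The members' level moved with other measures among the 3 Mcl1Δhep livers. In 50 of the 58 members replicate 1 was the lowest of the 3, and in 45 replicate 2 was the highest, the same order as the share of small structured RNA. How many of all tested genes had this order was not computed. With the small structured RNA share as a covariate 31 of the 46 members were still called and the median was 1.501, while 2.67% of all tested genes were called higher, in place of 10.8%. With its log2, a covariate chosen after seeing the data, 26 members were called, against 2.3% of all tested genes. Leaving out Mcl1Δhep replicate 2 gave 38 calls, against 5.36% of all genes, and leaving out replicate 3, the library with muscle markers, gave 41, against 9.48%. With Y-linked expression as a covariate 41 were called, against 5.89%. Neutrophil markers (6.69, 19.1 and 7.61 CPM) and T and NK cell markers (5.54, 9.41 and 7.29 CPM) in replicates 1, 2 and 3 were in the same order. So were erythroid markers, with 698 and 637 CPM in replicates 2 and 3 and less in replicate 1, against 394 to 777 CPM in WT livers. Stellate cell markers were at 564.4, 602.3 and 564.5 CPM. Other lists had another order. Macrophage (796, 702 and 662 CPM), hepatocyte (131300, 96550 and 108500 CPM) and endothelial markers (355, 213 and 284 CPM) were highest in replicate 1. B cell and cholangiocyte markers were lowest in replicate 2. The part of small structured RNA, sex, muscle and other cell types in the members' change was not tested beyond these fits.

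**Figure D3:**
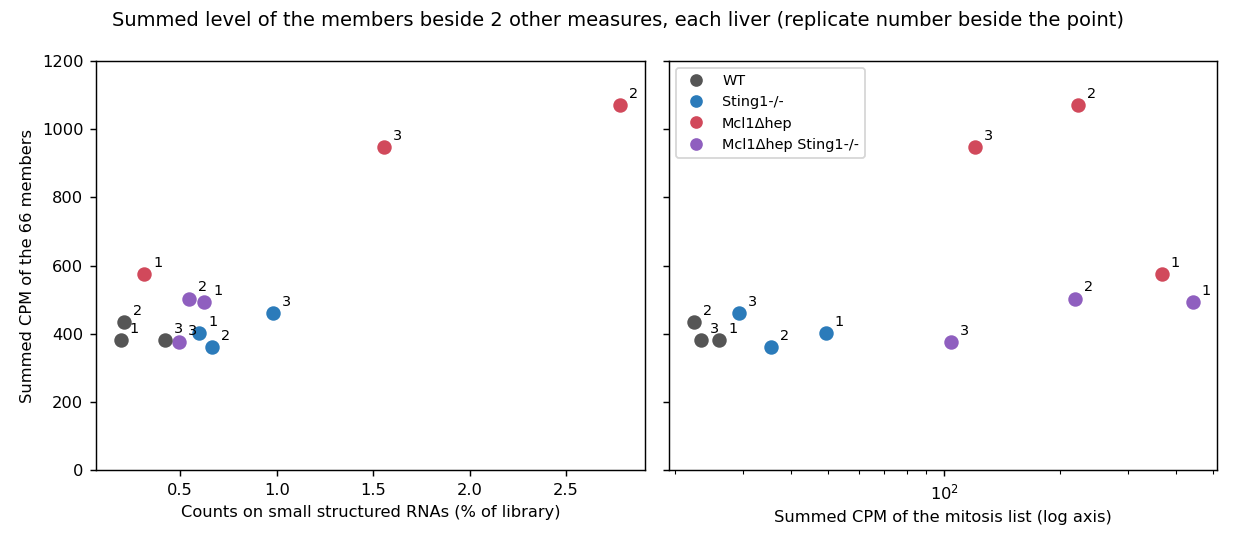
Summed CPM of the 66 members in each liver (vertical axis) against the percentage of counts on small structured RNAs (left) and against the summed CPM of the mitosis list on a log axis (right), with replicate numbers beside the points. Mcl1Δhep replicates 2 and 3 stand apart on the left at 2.78 and 1.55%, and the Mcl1Δhep and Mcl1Δhep Sting1-/- livers overlap on the horizontal axis of the right panel, at 120.4 to 367 and 104 to 441 CPM.

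The second comparison sets Mcl1Δhep Sting1-/- against Mcl1Δhep livers. Most members had lower values, and no single one passed the adjusted threshold by edgeR. edgeR's quasi-likelihood test called 0 of 58 members, and 0.0% of all tested genes lower. At an unadjusted p under 0.05, 47 members were lower, against 10.2% of all tested genes, and 1 was higher. The 1 higher member was H4c17, whose few counts are given above. DESeq2 called 35 members lower at an adjusted p under 0.05, against 2.36% of all genes. The median log2 fold change was -0.88, against 0.00 (-0.0021) over all genes, and 53 members had a negative value. In 41 members the 3 Mcl1Δhep Sting1-/- livers all lay below the 3 Mcl1Δhep livers, which held for 9.28% of all tested genes. The summed level was 492, 503 and 375 CPM, against 574, 1071 and 948 CPM, so that these sums did not overlap, with a ratio of means of 0.528. Without Mcl1Δhep replicate 1, the lowest of its group, edgeR called 38 members lower, against 9.08% of all genes tested in that fit. Some other measures were lower with the members, and some were not. Neutrophil markers summed to 3.10 to 4.31 CPM against 6.69 to 19.1 CPM, with 2 of the 3 tested lower at an unadjusted p under 0.05. Small structured RNA genes tested by name (Rn7sk and others) had a median log2 fold change of -1.25, with 2 of 6 lower at an unadjusted p under 0.05. Macrophage markers summed to 680 to 795 CPM in Mcl1Δhep Sting1-/- livers against 662 to 796 CPM in Mcl1Δhep livers. The ratio of means was 1.07 for hepatocyte, 1.09 for endothelial and 1.52 for B cell markers. It was 0.775 for T and NK cell and 0.660 for erythroid markers. The part of these measures in the members' difference was not tested further.

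H1f3 had the lowest fold change. It had 18.5, 21.0 and 9.51 CPM in Mcl1Δhep Sting1-/- livers against 26.2, 87.4 and 56.0 CPM in Mcl1Δhep livers, without overlap, and its log2 fold change was -1.79 (SE 0.40, adjusted p = 0.131). H3c2 had 3.17, 3.26 and 1.75 CPM, again below every Mcl1Δhep liver, at -1.46 (SE 0.39, adjusted p = 0.133). H2bc18 was at -1.26 (SE 0.32, adjusted p = 0.133) and H4c3 at -1.16 (SE 0.29, adjusted p = 0.132). H2bc4 was at -0.02 (SE 0.17, adjusted p = 0.944). By type, the median was -1.20 for H1, -0.79 for H2A, -0.91 for H2B, -0.86 for H3 and -1.16 for H4, and DESeq2 called all 5 H1 genes, 4 H2A, 10 H2B, 7 H3 and 9 H4 genes lower. Replicate 3 was the lowest Mcl1Δhep Sting1-/- liver in 48 of the 58 members, a count that was not made over all genes.

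**Figure D4:**
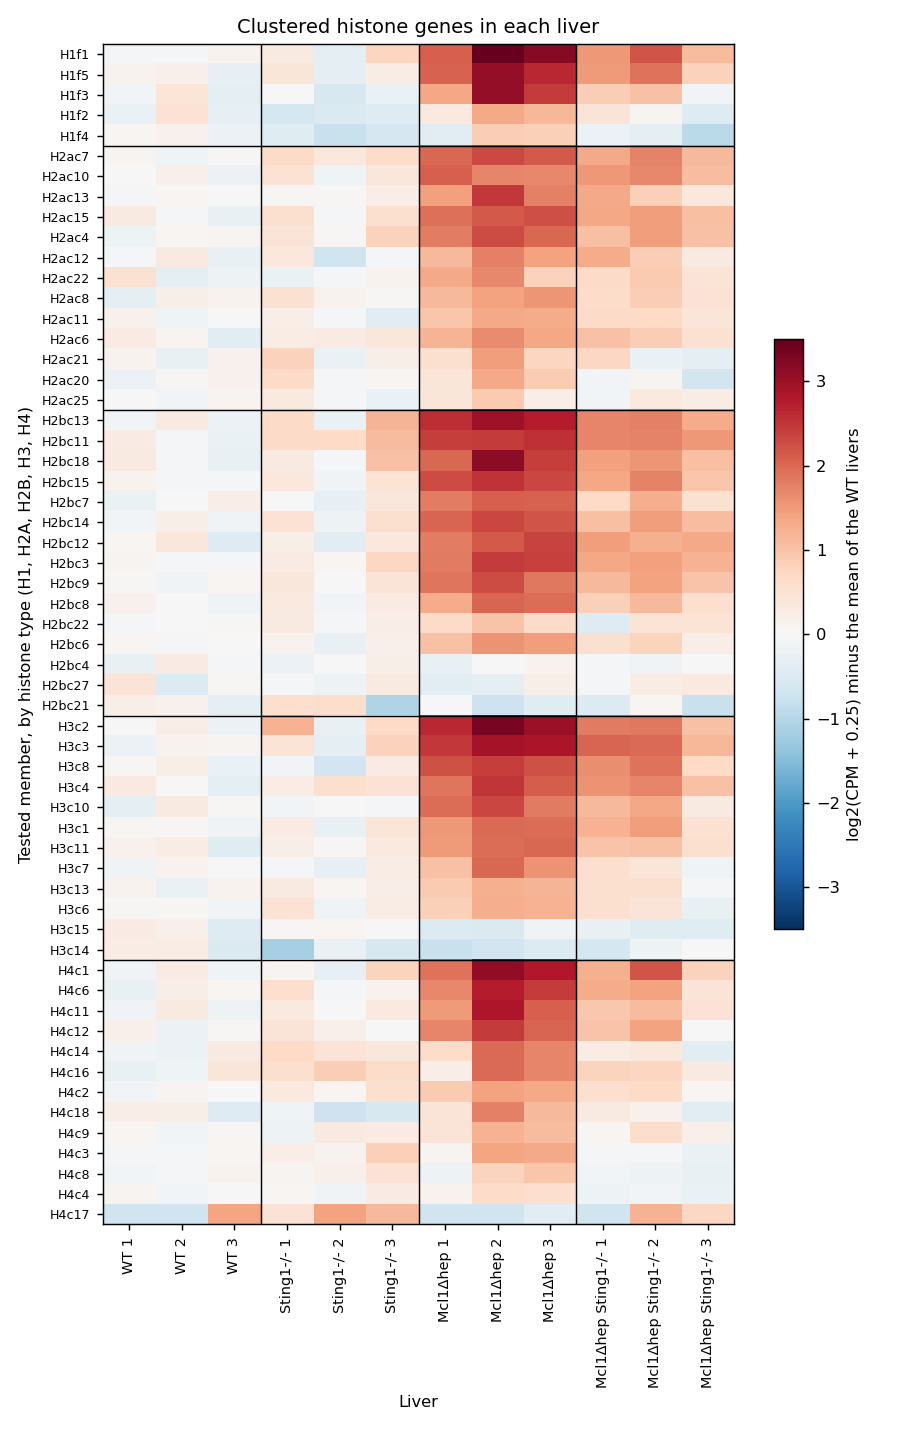
log2(CPM + 0.25) of each tested member in each of the 12 livers minus the mean of the 3 WT livers, with members grouped by histone type and ordered within each by the change between Mcl1Δhep and WT. The Mcl1Δhep columns are darkest, with replicate 1 paler than replicates 2 and 3, and the Mcl1Δhep Sting1-/- columns stand between them and WT, with replicate 3 the palest.

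The loss of Sting1 alone was looked at in livers with Mcl1. Between Sting1-/- and WT livers edgeR called 0 of 58 members, 2 were higher and 1 lower at an unadjusted p under 0.05, against 5.45% of all tested genes in either direction, and DESeq2 called 0. The median was 0.24. H2bc11, with 1.13, 1.17 and 1.64 CPM in Sting1-/- and 0.817, 0.592 and 0.495 CPM in WT livers, did not overlap (log2 fold change 0.98, SE 0.25, adjusted p = 0.613). The 1 member lower at an unadjusted p under 0.05 was H3c14 (0.552, 1.30 and 0.964 against 1.90, 1.90 and 1.02 CPM, log2 fold change -0.74), with ranges that overlap. The abundant linker histone genes H1f4 (42.7, 33.4 and 37.7 against 59.3, 63.0 and 49.4 CPM, log2 fold change -0.59, adjusted p = 0.946) and H1f2 (27.6, 30.1 and 31.3 against 36.5, 60.4 and 34.9 CPM, -0.57, adjusted p = 0.981) were lower without overlap. No H1 gene had an unadjusted p under 0.05, and 2 of the 5 had a positive log2 fold change. The H1 genes summed to 74.0 to 86.5 CPM in Sting1-/- and 96.9 to 142 CPM in WT livers.

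The loss of Mcl1 was also looked at with Sting1 deleted in both groups. Between Mcl1Δhep Sting1-/- and Sting1-/- livers 2 members were called higher by edgeR, against 0.677% of all tested genes, and DESeq2 called 16, against 2.58% of all genes. The 2 were H3c8, with 1.60, 1.995 and 0.738 against 0.320, 0.132 and 0.482 CPM (log2 fold change 2.03, SE 0.45, adjusted p = 0.0494), and H2bc15, with 5.34, 7.10 and 4.07 against 2.59, 1.78 and 2.82 CPM (1.18, SE 0.23, adjusted p = 0.0416), neither with overlap. Both calls lie close to the threshold, and they were lost when 1 library was left out in most cases: the count was 9 without Mcl1Δhep Sting1-/- replicate 3 (1.52% of all genes), 2 without Mcl1Δhep replicate 1, 1 without Mcl1Δhep replicate 3 and 0 without any other single library. The median was 0.73, with 0.94 for H1 and H2A, 0.90 for H2B, 0.88 for H3 and 0.13 for H4.

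Between Mcl1Δhep Sting1-/- and WT livers 17 members were called higher and 0 lower, against 1.52% of all tested genes called higher. They were 7 H2B, 4 H2A, 4 H3 and 2 H1 genes and no H4 gene. DESeq2 called 25 members higher, against 509 of 14438 genes. By edgeR 35 members were higher at an unadjusted p under 0.05, against 1312 of 15070 genes. The median was 0.92, with 1.33 for H2B and 0.48 for H4. H2ac10 had the highest value, with 1.13, 1.29 and 0.765 CPM against 0.237, 0.296 and 0.165 CPM (1.95, SE 0.39, adjusted p = 0.0172), followed by H2bc13 (1.95, SE 0.43, adjusted p = 0.0291). H1f1 and H3c2 were called at 1.76 and 1.82. Of the 10 members with the highest mean TPM none passed, with values from -0.47 for H1f4 to 1.36 for H2bc18 (SE 0.33, adjusted p = 0.0587) and a median of -0.03, while 3 of them were higher at an unadjusted p under 0.05 and DESeq2 called 2. H4c8 was at -0.17, H4c3 at -0.12 and H1f2 at 0.02. The edgeR count rested on single libraries and ran from 1 to 21 when 1 was left out, while the members' median ran from 0.79 to 1.07. The count was 1 without WT replicate 2, 4 without WT replicate 3, 4 without Mcl1Δhep Sting1-/- replicate 2, 6 without replicate 1 of that group and 9 without WT replicate 1. Over all genes these fits called 0.156, 0.472, 0.656, 0.616 and 1.09% higher, in that order. In 47 of the 58 members the mean of the Mcl1Δhep Sting1-/- livers lay between the means of WT and Mcl1Δhep livers. The share over all tested genes was not computed, so that this count is a description only. The comparisons share libraries and are not independent of each other.

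The difference between the effects of Mcl1 loss with and without Sting1 was tested as an interaction. No member passed (edgeR, 0 of 58), 41 had a lower log2 fold change on Mcl1 loss in Sting1-/- livers than in livers with Sting1 at an unadjusted p under 0.05, against 7.11% of all tested genes. The 1 with a higher value was H3c14, at 0.42 without Sting1 and -0.79 with it (difference 1.21, SE 0.50, adjusted p = 0.312). DESeq2 called 12 members, all with a negative difference, against 0.446% of all genes. The median was -1.20. The lowest adjusted p by DESeq2 was that of H2bc11 at -1.85 (SE 0.34, adjusted p = 0.216 by edgeR and 0.000674 by DESeq2). Among the others were H4c14 at -1.98 (SE 0.44, adjusted p = 0.216 by edgeR and 0.00379 by DESeq2), H3c2 at -2.24 (SE 0.58, adjusted p = 0.252 and 0.0142) and H2bc13 at -2.11 (SE 0.58, adjusted p = 0.253 and 0.0265). Without Mcl1Δhep replicate 1 edgeR called 28 members with a negative value, against 4.22% of all genes tested in that fit, and without WT replicate 1 it called 1, against 0.182%. Small structured RNA genes tested by name had a median of -2.52, with 5 of 6 negative at an unadjusted p under 0.05.

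Other genes of histone supply were compared as lists. Of 17 genes of histone mRNA processing 1 was called between Mcl1Δhep and WT livers, with a list median of -0.05. This was Zfp473, which encodes a zinc finger protein of the U7 processing complex, and it is near the limit of detection (0.032 ± 0.033 against 0.459 ± 0.292 CPM, log2 fold change 2.61, adjusted p = 0.00908). Slbp had 10.8 ± 0.408 CPM in WT livers and 14.3, 13.9 and 13.8 CPM in Mcl1Δhep livers, without overlap, at 0.37 (SE 0.12, adjusted p = 0.0507), and 13.5 ± 1.90 in Mcl1Δhep Sting1-/- livers. Npat, the coactivator of histone genes at their nuclear bodies, was at -0.08 (adjusted p = 0.772). Of the 11 genes listed as replication-independent histones 4 rose between WT and Mcl1Δhep livers, beside 10.8% of all tested genes. They were Cenpa (2.02, adjusted p = 0.00228), the histone of centromeres, H2ax (1.51, adjusted p = 0.00492), H2az1 (1.14, adjusted p = 0.00829) and H1f10 (2.48, adjusted p = 0.047, with under 2 CPM in every liver). Of these, H2ax holds the stem-loop of the members. H3f3a and H3f3b, which encode H3.3, were at 0.55 (adjusted p = 0.0512) and 0.45 (adjusted p = 0.0763), and H1f0 at -0.18 (adjusted p = 0.515). Of 17 histone chaperones, with a list median of -0.09, 2 rose beside 10.8% of all tested genes, Asf1b (1.95, adjusted p = 0.00395) and Chaf1b (1.72, adjusted p = 0.0067), which hand new histones to replicating DNA.

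Genes of the cell cycle were compared in the same way. In Mcl1Δhep against WT livers 21 of 36 S-phase genes rose and 1 fell, with a median of 0.97, and all 24 tested mitosis genes rose, with a median of 3.33. Mcm2, a subunit of the replicative helicase, was at 1.73 (adjusted p = 0.00495), Pcna, the sliding clamp, at 0.66 (adjusted p = 0.0276), Rrm2, a subunit of ribonucleotide reductase, at 1.37 (adjusted p = 0.0058), Top2a at 2.77 (adjusted p = 0.00253) and the proliferation marker Mki67 at 2.86 (adjusted p = 0.0127). Between Mcl1Δhep Sting1-/- and Mcl1Δhep livers, where the members had a median of -0.88, the S-phase list had 0.04 and the mitosis list -0.02, with 0 genes called and 1 S-phase gene in each direction at an unadjusted p under 0.05. Mcm2 was at 0.04 (SE 0.30), Top2a at -0.10 (SE 0.40) and Mki67 at 0.50 (SE 0.60). Among the Mcl1Δhep livers the mitosis list summed to 367, 222 and 120.4 CPM in Mcl1Δhep replicates 1, 2 and 3, whereas the members were lowest in replicate 1. The S-phase list summed to 368, 393 and 402 CPM in them, with replicate 1 lowest as for the members, and to 392.6, 542.5 and 271.8 CPM in the Mcl1Δhep Sting1-/- livers, the order of the members' sums there. The difference between the lists was not tested.

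**Figure D5:**
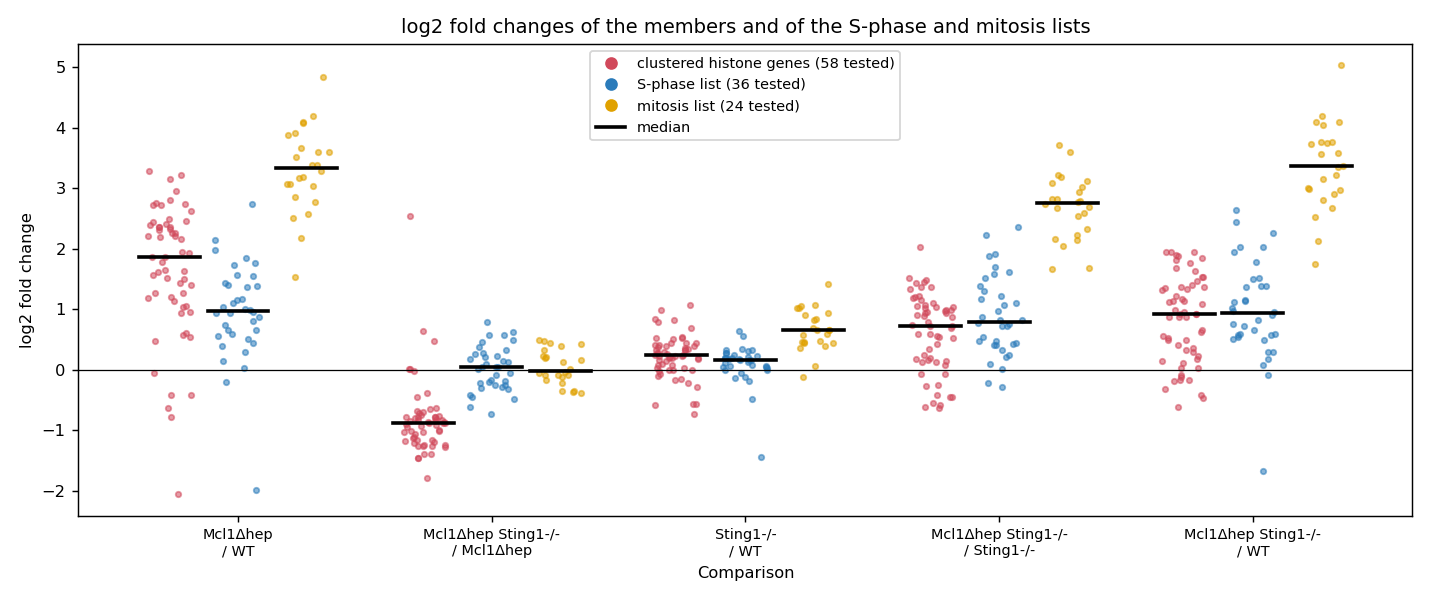
log2 fold changes of the 58 tested members and of the 36 S-phase and 24 mitosis genes in 5 comparisons, each point a gene and each black bar a median. The members' median is 1.87 in Mcl1Δhep against WT livers and -0.88 in Mcl1Δhep Sting1-/- against Mcl1Δhep livers, where the medians of the other lists are 0.04 and -0.02.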

How the data were processed

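The authors deposited 1 table of raw read counts per liver, by Ensembl gene and without normalization. The submitters' notes name STAR, featureCounts and GRCm39, while versions, annotation, strand and the treatment of reads with several matches are not given in the sources used here. Labels and paper name different RNA extraction kits. The study's text describes the replicates of its liver RNA-seq plots as biological, and the labels do not name the animals. TMM-scaled CPM and the tests came from edgeR 4.0.16 in R 4.3.3 (filterByExpr by genotype, glmQLFit and glmQLFTest, prior count of 2, all 12 libraries, no covariate, Benjamini-Hochberg over 15070 genes, threshold of 0.05), and DESeq2 1.42.0 was an alternative. TPM used summed exon lengths, and 39533 identifiers had an annotation. The scripts were tested on simulated data. Libraries of a genotype were checked for duplicates by a chi-square test over genes, whose value per degree of freedom was at least 40.1. The members and lists were chosen with earlier results of these data known. Named members are, among those tested, the 3 with the highest mean TPM per type, the 2 with the largest and the 2 with the smallest change per comparison, all outside chromosome 13, and the testis-type genes. Other members, such as H1f5 and the head-to-head pairs, were named after their values were seen. Non-members came from the lists. Precision rests on 3 livers per genotype and on the counts of each gene. Alternatives were other scalings, filters, samples and covariates. Depth was 28826367 to 45266387 counts per library.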

Additional observations from a re-analysis of the deposited data

How the results depend on the processing

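The direction of the members' median held in all 6 comparisons under the other scalings, filters and samples, except that between Sting1-/- and WT livers it was -0.08 with the log2 of the small structured RNA share as a covariate, an alternative chosen after seeing the data. Between Mcl1Δhep and WT livers that covariate gave 26 called members, and leaving out 1 library 38 to 49. Scaling by library totals moved the median of all genes by 0.18 to higher values, with 2531 genes higher and 664 lower in place of 1629 and 1421, and gave 49 called members with a median of 2.05. Between Mcl1Δhep Sting1-/- and Mcl1Δhep livers DESeq2 called 35, and leaving out 1 library gave 0 to 38. Against Sting1-/- livers DESeq2 called 16 and the test without a filter 4, while the fit of the compared groups alone, the replicate block and the Y-linked covariate each called 0, and leaving out 1 library gave 0 to 9. Of those calls 2 were among the 31 members without overlapping exons and 0 among the 11 with mostly unique sequence. Between Mcl1Δhep Sting1-/- and WT livers DESeq2 called 25 members higher, the fit of the compared groups alone 1, the replicate block 11 and the log2 share 7. Leaving out 1 library gave 1 to 21, and 2 of the main calls were among the 11 with mostly unique sequence. Where no share over all genes is given for a fit, as for the replicate block, the compared groups alone and the test without a filter, its count is a description only. In the interaction DESeq2 called 12, and leaving out 1 library gave 0 to 28. The fit of the compared groups alone was not run for the interaction, which needs all 4 genotypes. For all of these the cause was not tested. Replicate numbers were not taken to pair the samples: livers with the same number in 2 genotypes had correlated deviations of -0.541 to 0.251 (between Mcl1Δhep Sting1-/- and Sting1-/- livers each correlated best with its own number, at 0.068 to 0.251), so the block, which called 45 members between Mcl1Δhep and WT livers, uses a number only. Of 4055 values of named members under an alternative, 132 changed sign, 0 of them with a call before or after, 141 lost a call and 89 gained one. Members with few counts, such as H2bc22 and H2bc27, limit what single genes can show.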

Other observations

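The 56 members outside the 10 most abundant summed to 84.7, 90.6 and 82.9 CPM in WT, 108, 84.7 and 108 CPM in Sting1-/-, 234, 443 and 354 CPM in Mcl1Δhep and 164, 191 and 118 CPM in Mcl1Δhep Sting1-/- livers. The 10 most abundant members summed to 298 to 343 CPM in WT and to 257 to 328 CPM in Mcl1Δhep Sting1-/- livers, ranges that overlap. The ratio of means of Mcl1Δhep Sting1-/- to WT livers was 1.83 for the former and 0.956 for the latter.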
